A study of Mus musculus with 10 samples.

Results

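Krt222, Cdc42bpb, Emb, Nid1 and Sirpa are 5 genes that B cell studies rarely describe, out of 14450 genes listed for mature B cells of mouse bone marrow. They were chosen by their measured levels in these same libraries, which were higher in the Chat+ group, so that difference is a description of the genes and carries no test. The cells were sorted by flow cytometry from bone marrow at steady state, and the mice were Chat-GFP reporters. In such mice GFP reports activity of Chat, the gene of choline acetyltransferase, the enzyme that makes acetylcholine. There were 5 libraries of Chat+ mature B cells and 5 libraries of Chat- mature B cells, all from the same strain and tissue, with no treatment and no age given. The labels do not say which libraries came from separate animals, so each p-value reflects the spread among the libraries alone, which may be technical. Levels are in CPM, that is, scaled so that the listed genes of a library sum to 1000000.

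Krt222 encodes a keratin-family protein, of the class that builds intermediate filaments, and its function is little known. Cdc42bpb encodes MRCK beta, a kinase that binds the active form of the small GTPase Cdc42 and acts on actin and myosin. Embigin, the product of Emb, is a membrane glycoprotein of the immunoglobulin superfamily that serves as an accessory chain of monocarboxylate carriers. SIRPA is a surface receptor best known on macrophages and other myeloid cells, where binding to CD47 on a neighbouring cell recruits the phosphatases SHP-1 and SHP-2 to its tail. Nidogen-1, the product of Nid1, is a secreted protein that links laminin to type IV collagen in basement membranes.

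Estimated depth was 21526704 to 30055575 reads per library. Chat was 31.1 to 111 CPM in the Chat+ libraries and 1.17 to 19.7 CPM in the Chat- libraries, without overlap and in the order of the labels. Chat- replicate 4 stood apart, with 11.9% of its CPM from mitochondrial transcripts against 2.27% to 3.85% in the other libraries. That library also had the highest levels of several genes of other cell types, with 26.7 CPM of Csf1r (the receptor that macrophages need) against 0.775 to 8.13 CPM elsewhere and 111 CPM of the collagen gene Col1a1 against 7.59 to 42.4 CPM. All 13 measured B cell identity genes were detected in every library, with summed levels of 19927 to 22674 CPM in Chat+ and 20960 to 21201 CPM in Chat-. On the log2 scale 5 of them had a higher and 8 a lower mean in Chat+, beside 57.0% of all genes higher. An unadjusted limma p under 0.05 was reached by 2 of the 13, both lower in Chat+. Of all genes tested with limma, 1 passed the Benjamini-Hochberg threshold, which is 0.00692% of genes. An unadjusted p under 0.05 was reached by 4.51%, which is 3.49% higher and 1.01% lower in Chat+.

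The stretches just upstream of the genes are shown for the 2 members with bases that lie before both the RefSeq and the GENCODE start site, since the members were read together across the same libraries. Capitals mark matches to the motifs searched, and both are 5′ to 3′ on the gene's strand from RefSeq's GRCm38.p6 sequence. The Cdc42bpb stretch lies at chr12:111377719-111377968 on the minus strand and the Nid1 stretch at chr13:13437352-13437550 on the plus strand.
Cdc42bpb: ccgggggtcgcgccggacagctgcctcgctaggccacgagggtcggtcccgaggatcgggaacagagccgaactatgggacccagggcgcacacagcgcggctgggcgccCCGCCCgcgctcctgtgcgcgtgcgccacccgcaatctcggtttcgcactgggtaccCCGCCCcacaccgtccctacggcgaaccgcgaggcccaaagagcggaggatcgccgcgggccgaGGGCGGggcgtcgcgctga
Nid1: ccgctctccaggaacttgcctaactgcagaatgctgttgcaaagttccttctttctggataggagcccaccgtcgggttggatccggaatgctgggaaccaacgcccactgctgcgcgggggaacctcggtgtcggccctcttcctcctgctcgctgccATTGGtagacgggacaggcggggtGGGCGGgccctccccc

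Windows of 300 bases, from 250 before to 50 after the RefSeq start, were scanned on both strands for Cdc42bpb, Nid1 and Emb, the 3 of the 5 genes matched by symbol in RefSeq's promoter table. The GC box GGGCGG, which Sp and Kruppel-like factors bind, matched 3 times in Cdc42bpb, once in Nid1 and once in Emb, and 35.9% of 32544 promoters hold it. The NF-Y letters CCAAT matched once in Nid1 (37.4% of promoters), the E-box CAGGTG matched 2 times in Emb (20.3%) and the nuclear receptor motif AGGTCA matched once in Cdc42bpb (16.2%). The other motifs searched had no match in these 3 windows. These were CACGTG (7.17% of promoters), the EBF motif by name (0.913%), TGTGGTT (5.29%), CCGGAAGT (3.92%), TGANTCA (7.79%), TGACGTCA (1.80%), TTCNNNGAA (8.33%), ATTTGCAT (1.75%), AGGTGTGA (1.28%) and TATAAA (13.6%). The GC content was 75.7% for Cdc42bpb, 64.7% for Nid1 and 57.7% for Emb, beside a median of 53.0% over the 32544 promoters. The shares of promoters with a motif were not adjusted for GC content. Some of these motifs share letters, and each match describes letters, not a measured site.

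Every Chat+ library lay above every Chat- library for each of the 5 genes, and 1.12% of all genes had this order, with 0.304% in the opposite order. Since the rule picked them for being higher in Chat+, nothing is read from that count. The 5 genes together made up 199 to 290 CPM in the Chat+ libraries and 101 to 149 CPM in the Chat- libraries. Without Chat- replicate 4 the log2 differences were 1.16 for Krt222, 1.204 for Cdc42bpb, 1.53 for Emb, 0.84 for Nid1 and 1.28 for Sirpa. In these pooled cells, fewer cells that use a gene and less RNA of it per cell cannot be told apart.

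**Figure D1:**
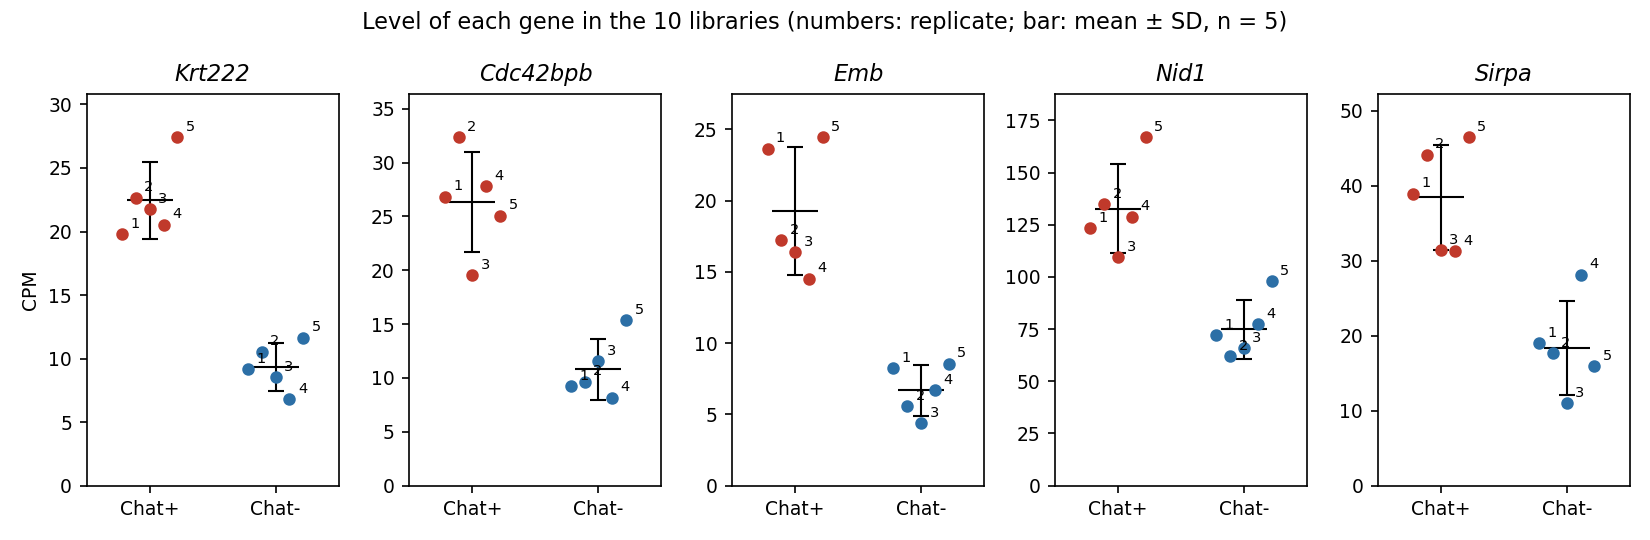
CPM (vertical axes, from 0) of the 5 genes in 5 Chat+ (red) and 5 Chat- (blue) libraries, numbered by replicate, with mean ± SD, n = 5. The groups do not overlap for any of the 5 genes, and the smallest gaps are those of Sirpa, with a lowest Chat+ value of 31.2 CPM above Chat- replicate 4 at 28.2 CPM, and of Nid1, with 110 CPM above 97.9 CPM.

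Krt222 (ENSMUSG00000035849) is a protein coding gene that spans bases 99232761 to 99244085 of chromosome 11 (GRCm38, minus strand). Its level was 19.8, 22.7, 21.8, 20.5 and 27.4 CPM in Chat+ replicates 1 to 5. In Chat- replicates 1 to 5 it was 9.19, 10.6, 8.55, 6.78 and 11.7 CPM. Chat+ replicate 5 was the highest of its group and so was Chat- replicate 5, while Chat- replicate 4 was the lowest library of all. The means were 22.4 ± 3.002 and 9.35 ± 1.87 CPM (SD, n = 5), and the log2 difference was 1.27 (95% confidence interval 0.87 to 1.67) on the log2(CPM + offset) scale. The lowest Chat+ library had 1.70 times the level of the highest Chat- library, and the values rest on 146 to 708 estimated reads per library. Of the 31-base words of its transcripts, 1.25% also occur in other genes.

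The groups overlapped for the listed genes on both sides of Krt222. Smarce1, which encodes a subunit of the SWI/SNF chromatin remodelling complex, begins 1.74 kb downstream on the same strand, and averaged 110 ± 15.5 CPM in the Chat+ group against 113 ± 16.8 CPM in the other (SD, n = 5; log2 difference -0.04 ± 0.14, SE, limma adjusted p = 0.999). Ccr7, the chemokine receptor that guides lymphocytes into lymph nodes, had 201 ± 32.8 and 203 ± 20.2 CPM. On the other side, the next listed gene was the epidermal keratin gene Krt10, 141 kb away, with 2.50 ± 0.570 and 1.73 ± 1.05 CPM (log2 difference 0.62 ± 0.41, SE).

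Among 36 keratin and other intermediate filament genes, 19 were listed. Of these, 0 passed the limma threshold over all genes and 3 reached an unadjusted p under 0.05, beside 4.51% of all genes. A higher mean in Chat+ was held by 17 of the 19 on the log2 scale, the scale of all such counts here, beside 57.0% of all genes. The median log2 difference was 0.53, against 0.04 over all 14450 genes. Vim, the gene of vimentin, the main intermediate filament protein of lymphocytes, averaged 626 ± 37.9 CPM in the Chat+ group against 518 ± 40.2 CPM in the other (SD, n = 5; limma adjusted p = 0.82), and its groups did not overlap. The nuclear lamina genes Lmna and Lmnb1 had 21.8 ± 5.44 against 13.8 ± 10.5 CPM and 98.1 ± 24.97 against 68.5 ± 16.6 CPM, with overlapping groups. For Lmna the overlap rested on Chat- replicate 4 at 32.0 CPM. The other Chat- libraries had 7.12 to 13.2 CPM of it, and the lowest Chat+ library 18.7 CPM. Krt7, a keratin of simple epithelia, had 15.6 ± 5.10 and 12.1 ± 13.9 CPM, the latter with 36.8 CPM in Chat- replicate 4 and 4.53 to 7.23 CPM in the other 4. Without that library the median of the list was 0.95, and 9 of the 19 genes reached an unadjusted p under 0.05, all higher in Chat+. Over all 14450 genes in that setting, 774 reached it with a higher and 284 with a lower level in Chat+, and the median was -0.0017.

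Cdc42bpb (ENSMUSG00000021279) is a protein coding gene that spans bases 111292976 to 111377718 of chromosome 12 (GRCm38, minus strand). The Chat+ libraries had 26.8, 32.4, 19.6, 27.8 and 25.1 CPM in replicates 1 to 5, and the Chat- libraries had 9.23, 9.65, 11.6, 8.18 and 15.4 CPM. Chat+ replicate 3 was the lowest of its group and came nearest to Chat- replicate 5, the highest of the other group, at 1.27 times its level. Means were 26.3 ± 4.64 and 10.8 ± 2.83 CPM (SD, n = 5), with a log2 difference of 1.29 (95% confidence interval 0.86 to 1.73). Of its 31-base words, 13.2% also occur in A230087F16Rik, an antisense gene on the opposite strand that has no row in the table. The library kit marks strand, but whether the quantification used it is not given in the sources used here, so a share of these reads is of uncertain origin.

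The groups overlapped for the genes of both MRCK relatives and for Cdc42 itself. Cdc42bpg, the gene of MRCK gamma, averaged 13.5 ± 5.23 CPM in the Chat+ group against 16.1 ± 3.945 CPM in the other (SD, n = 5; log2 difference -0.32 ± 0.29, SE, limma adjusted p = 0.999). For Cdc42bpa, which encodes MRCK alpha, the means were 2.12 ± 1.65 and 1.53 ± 0.959 CPM. Cdc42 averaged 675 ± 97.2 and 646 ± 37.2 CPM, a log2 difference of 0.05 ± 0.11 (SE).

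Of 48 genes for Cdc42, its effectors and related kinases, 43 were listed. None passed the limma threshold over all genes (0 of 43), and the median log2 difference was 0.05, against 0.04 over all genes. Of all genes, 4.51% reached an unadjusted p under 0.05. At a like share, 2 of these 43 did, both with a higher mean in Chat+. These were Fnbp1l, whose product links Cdc42 to actin assembly at membranes, with 2.11 ± 1.001 against 0.740 ± 0.624 CPM, and Cdc42ep4, a Cdc42 effector gene, with 7.70 ± 1.51 against 5.28 ± 0.828 CPM (SD, n = 5; limma adjusted p = 0.999 for both). Wipf1, whose product stabilises the Wiskott-Aldrich syndrome protein, had 275 ± 22.6 and 305 ± 21.7 CPM. Dock8, an activator of Cdc42 needed by lymphocytes, had 323 ± 37.9 and 284 ± 38.2 CPM. The neighbours Amn and Traf3 on one side and Tnfaip2 and Eif5 on the other had log2 differences of -0.21, -0.05, 0.13 and 0.09, with overlapping groups. Traf3, which restrains non-canonical NF-kB signalling in B cells, averaged 150 ± 10.7 CPM in the Chat+ group against 155 ± 13.9 CPM in the other.

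Emb (ENSMUSG00000021728) is a protein coding gene that spans bases 117208536 to 117274415 of chromosome 13 (GRCm38, plus strand). It had 23.6, 17.2, 16.4, 14.5 and 24.5 CPM in Chat+ replicates 1 to 5. The Chat- libraries had 8.24, 5.56, 4.36, 6.69 and 8.55 CPM in the same order. Replicates 1 and 5 were the 2 highest libraries in both groups. Emb had the largest fold of the 5 genes, with means of 19.2 ± 4.495 and 6.68 ± 1.77 CPM (SD, n = 5) and a log2 difference of 1.52 (95% confidence interval 1.002 to 2.04). The lowest Chat+ library had 1.70 times the highest Chat- level. Of its 31-base words, 17.4% occur in other genes, 9.53% in the overlapping gene Gm17509 on the opposite strand, which has no row in the table, so part of its level is of uncertain origin.

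The genes of embigin's relatives and of the carriers it can accompany had overlapping groups. Bsg, which encodes basigin, the best-known accessory chain of these carriers, averaged 103 ± 18.5 CPM in the Chat+ group against 102 ± 13.9 CPM in the other (SD, n = 5; log2 difference 0.0038 ± 0.14, SE, limma adjusted p = 0.999). Slc16a1, the gene of the lactate and pyruvate carrier MCT1, had 12.2 ± 1.71 and 13.01 ± 1.07 CPM. Slc16a3, which encodes the lactate exporter MCT4, had 1.24 ± 0.646 and 0.477 ± 0.183 CPM (log2 difference 1.12 ± 0.53, SE, limma adjusted p = 0.999). For Slc16a6, a member of the same carrier family, the values were 81.5 ± 18.6 and 94.1 ± 6.95 CPM. Of 20 genes on this list 12 were listed in the table, 0 passed the limma threshold, 0 reached an unadjusted p under 0.05, and the median log2 difference was 0.01. Mpc2, a subunit of the mitochondrial pyruvate carrier, had 25.9 ± 3.72 and 21.3 ± 3.81 CPM, and Ldha, the gene of a lactate dehydrogenase subunit, had 197 ± 22.4 and 171 ± 43.9 CPM.

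The listed gene nearest to Emb was Gm6421, a processed pseudogene 83.8 kb away with 2.40 ± 2.28 and 2.90 ± 1.97 CPM. Parp8, an ADP-ribosyltransferase gene on the other side, averaged 34.5 ± 2.86 CPM in the Chat+ group against 37.9 ± 7.07 CPM in the other (SD, n = 5). Mrps30, a mitochondrial ribosome gene, had 36.9 ± 4.61 and 38.3 ± 4.06 CPM, and the pseudogene Rpl34-ps2 7.77 ± 1.85 and 9.05 ± 4.39 CPM.

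Sirpa (ENSMUSG00000037902) is a protein coding gene that spans bases 129592835 to 129632228 of chromosome 2 (GRCm38, plus strand). Its levels were 39.0, 44.1, 31.5, 31.2 and 46.5 CPM in Chat+ replicates 1 to 5. In the Chat- libraries it had 19.0, 17.7, 10.99, 28.2 and 15.9 CPM. Chat- replicate 4, the library that stood apart, was the highest of its group and lay just under Chat+ replicate 4, which had 1.11 times its level. Means were 38.5 ± 7.04 and 18.4 ± 6.26 CPM (SD, n = 5), with a log2 difference of 1.11 (95% confidence interval 0.62 to 1.60). Without Chat- replicate 4 it was 1.28 ± 0.19 (SE), and without Chat- replicate 3, the lowest library, 0.94. Only 0.0392% of its 31-base words occur in other genes, the most in Sirpb1a.

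For the genes of SIRPA's ligand and of its phosphatases the groups overlapped. Cd47, the gene of the ligand, averaged 432 ± 50.3 CPM in the Chat+ group against 444 ± 81.1 CPM in the other (SD, n = 5; log2 difference -0.03 ± 0.13, SE, limma adjusted p = 0.999). Ptpn6, which encodes SHP-1, had 748 ± 96.2 and 808 ± 224 CPM, and Ptpn11, which encodes SHP-2, had 97.4 ± 9.57 and 95.3 ± 22.1 CPM. The related receptor gene Sirpb1c was near the floor, with 0.705 ± 0.672 and 0.327 ± 0.309 CPM and 2 libraries listed at 0. The kinase gene Ptk2b had 430 ± 38.9 and 470 ± 49.7 CPM, and the adaptor gene Skap2 61.8 ± 5.68 and 57.3 ± 7.29 CPM. Thbs1, the gene of thrombospondin-1, which also binds CD47, had 10.6 ± 6.65 and 13.6 ± 21.7 CPM, with 52.3 CPM in Chat- replicate 4. Of 18 genes on this list 15 were listed, 0 passed the limma threshold, 0 reached an unadjusted p under 0.05, and the median log2 difference was 0.01.

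Sirpa's nearest listed neighbours were the pseudogene Gm14046 at 118 kb and the kinase gene Stk35 at 168 kb on one side, and Il1b, the gene of interleukin-1 beta, at 222 kb and the pseudogene Gm14039 at 230 kb on the other. Their log2 differences were 0.92, 0.23, -0.22 and 0.70, with standard errors of 0.62, 0.16, 0.82 and 0.43. All of their groups overlapped.

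Nid1 (ENSMUSG00000005397) is a protein coding gene that spans bases 13437551 to 13512269 of chromosome 13 (GRCm38, plus strand). It had 123, 135, 110, 129 and 167 CPM in Chat+ replicates 1 to 5. The Chat- libraries had 72.2, 62.0, 65.7, 77.2 and 97.9 CPM. Replicate 5 was the highest in both groups, and the lowest Chat+ library had 1.12 times the level of the highest Chat- library. Means were 133 ± 21.3 and 75.0 ± 14.1 CPM (SD, n = 5), and the log2 difference of 0.83 (95% confidence interval 0.52 to 1.14) was the smallest of the 5 genes. Its values rest on 1528 to 4309 estimated reads per library, the most of the 5. Of its 31-base words, 4.05% occur in other genes, the most in Gm2399 (2.37%). The antisense gene Gm48682 overlaps it on the opposite strand and is not among the listed genes, so a share of its reads may also be of uncertain origin.

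Nid1 also had the highest level per length of the 5 genes, with 19.1 ± 3.07 CPM per kb of annotated exons in Chat+ and 10.8 ± 2.03 in Chat- (SD, n = 5). Next in Chat+ came Sirpa with 7.83 ± 1.43 and Krt222 with 6.82 ± 0.912 CPM per kb, which lay within their spread of each other. Cdc42bpb with 3.57 ± 0.629 and Emb with 2.79 ± 0.651 CPM per kb came last and also lay within their spread. In Chat- the order of levels was the same, from Nid1 through Sirpa (3.74 ± 1.28), Krt222 (2.84 ± 0.569) and Cdc42bpb (1.46 ± 0.384) to Emb (0.967 ± 0.257). There too Sirpa and Krt222, and Cdc42bpb and Emb, lay within their spread of each other. Krt222 and Cdc42bpb were further apart than their spread in both groups. By CPM, Nid1 was above 89.0% of listed genes in Chat+ and 79.1% in Chat-, and Emb above 48.7% and 33.5%.

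Of the listed basement membrane genes, none passed the threshold, and the groups of those named here overlapped. Lamc1, the gene of the laminin gamma 1 chain that nidogen-1 binds, averaged 50.9 ± 3.34 CPM in the Chat+ group against 53.4 ± 8.93 CPM in the other (SD, n = 5; log2 difference -0.05 ± 0.12, SE, limma adjusted p = 0.999). Col4a2, a type IV collagen gene, had 1.69 ± 0.601 and 0.689 ± 0.778 CPM (log2 difference 1.52 ± 0.61, SE, limma adjusted p = 0.999). Hspg2, which encodes the proteoglycan perlecan, had 10.1 ± 2.89 and 6.93 ± 1.59 CPM, and Tinagl1, a matrix protein gene, 1.295 ± 1.01 and 0.320 ± 0.198 CPM. Itgb1, the integrin beta 1 chain gene, had the smallest p of the list, with 81.2 ± 15.7 and 55.3 ± 8.64 CPM (log2 difference 0.55 ± 0.15, SE, limma adjusted p = 0.47). Nid2, which encodes the other nidogen, was not among the listed genes.

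Of 38 basement membrane genes, 23 were listed, 0 passed the limma threshold, 3 reached an unadjusted p under 0.05, all with a higher mean in Chat+, and the median log2 difference was 0.27. Of all genes, 3.49% reached it with a higher and 1.01% with a lower level in Chat+, and their median was 0.04. Without Chat- replicate 4 the median was 0.53 and 8 genes reached an unadjusted p under 0.05, all higher in Chat+, beside 774 higher and 284 lower of all 14450 genes. The list overlaps with stromal markers, and its summed level was 269 to 341 CPM in Chat+, 376 CPM in Chat- replicate 4 and at most 273 CPM in the other Chat- libraries.

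**Figure D2:**
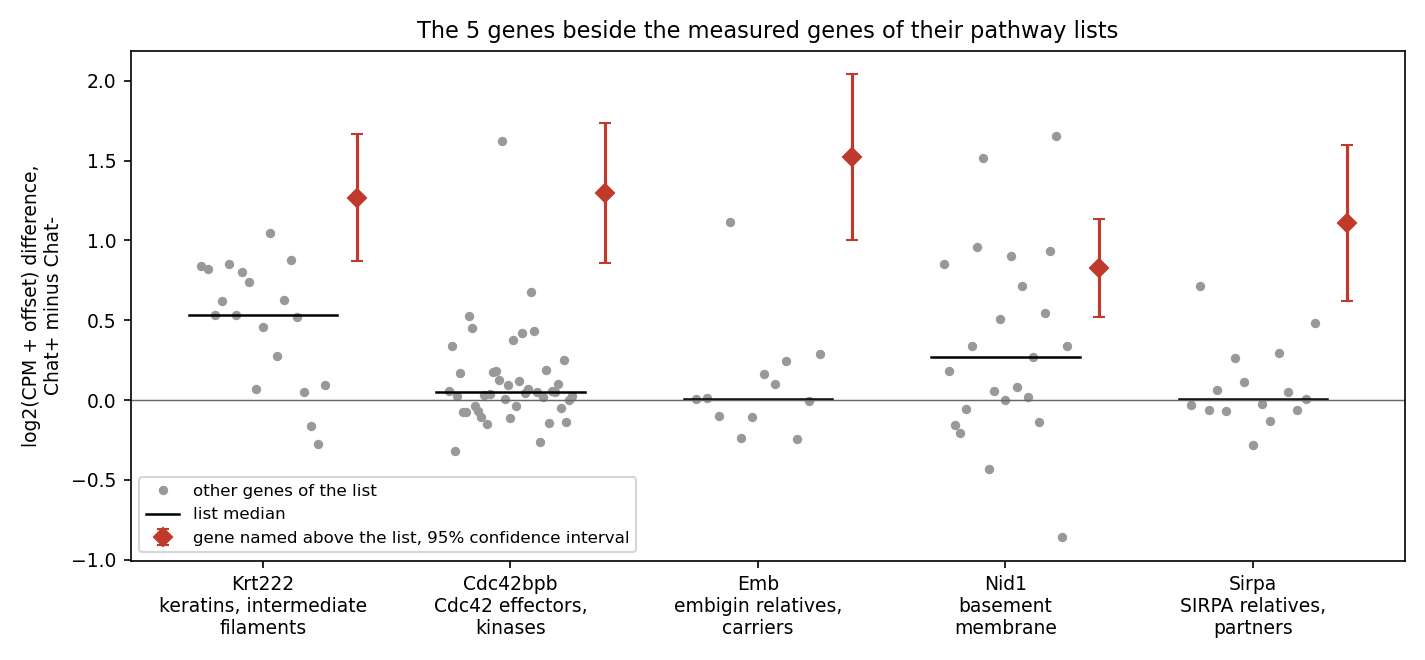
Difference between group means on the log2(CPM + offset) scale (vertical axis) for each of the 5 genes (red, 95% confidence interval) and for the other listed genes of its pathway list (grey points, black line at the list median). List medians are 0.53, 0.05, 0.01, 0.27 and 0.01 from left to right, and the red points, from 0.83 to 1.52, were chosen for being high.

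Among the neighbours of Nid1, Gpr137b, a lysosomal membrane protein gene 43.5 kb away on the opposite strand, averaged 89.6 ± 11.6 CPM in the Chat+ group against 69.3 ± 12.6 CPM in the other (SD, n = 5; log2 difference 0.38 ± 0.14, SE, limma adjusted p = 0.95). Lyst, a gene of lysosome trafficking 78.1 kb away on the same strand, had 154.5 ± 13.01 and 146 ± 13.02 CPM. Gng4, a G protein gamma subunit gene, and the pseudogene Gm48672 were low, at 3.595 ± 2.31 and 2.97 ± 1.46 CPM and at 0.838 ± 0.549 and 1.15 ± 1.58 CPM. Over all 5 genes, 0 of 20 neighbours passed the limma threshold, and 1 reached an unadjusted p under 0.05 (Gpr137b), beside 4.51% of all genes. Of the 20, 0 had groups that did not overlap, beside 1.43% of all genes. The median log2 difference of the neighbours was 0.09.

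**Figure D3:**
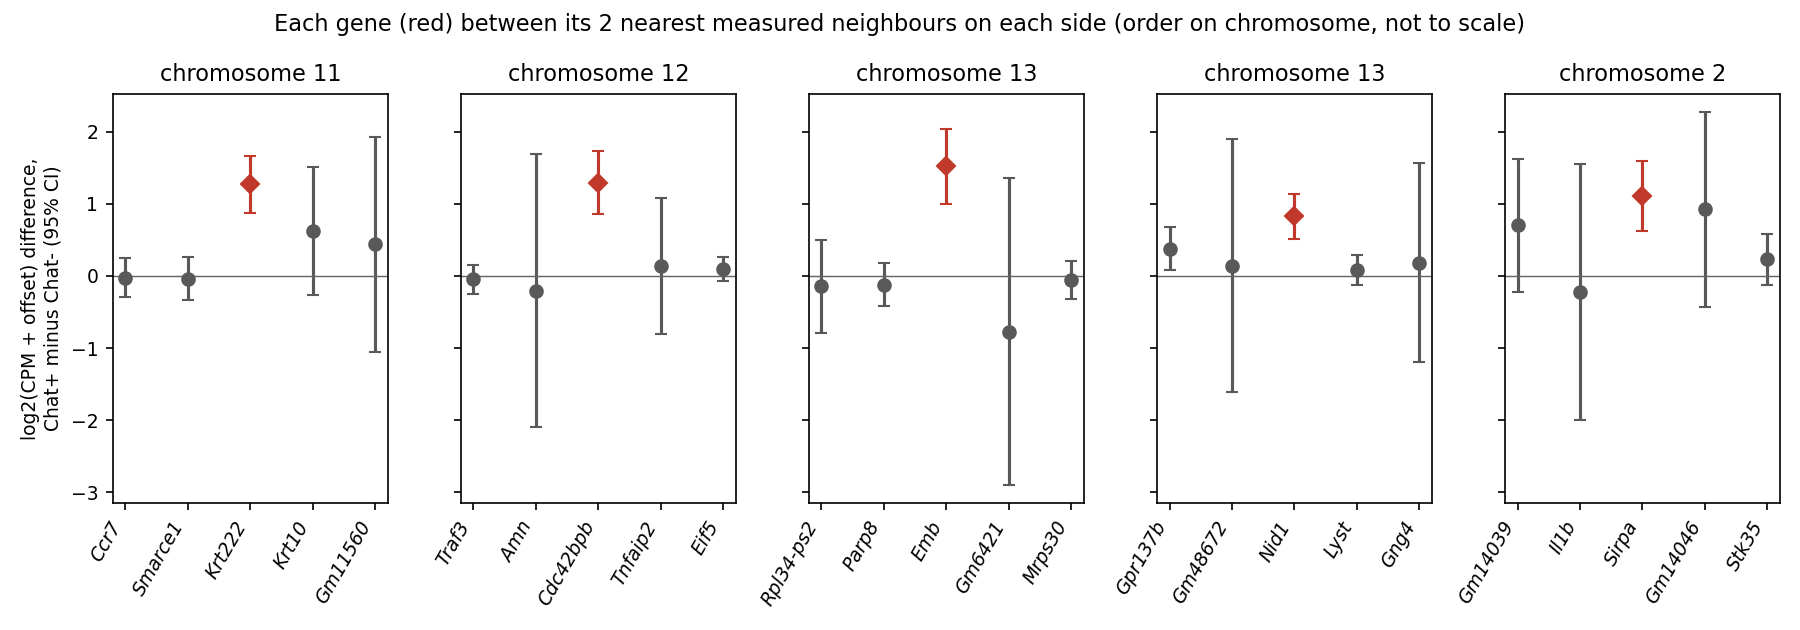
Difference between group means on the log2(CPM + offset) scale (vertical axis, 95% confidence interval) for each of the 5 genes (red) and the 2 nearest listed genes on each side (grey), in chromosome order. The neighbours lie between -0.77 and 0.92, with the widest intervals for genes of few reads.

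Spread within a group was measured as the deviation of each library from its group mean, which removes the difference used to choose the genes. The within-group SD on the log2 scale was 0.24 for Nid1, 0.25 for Krt222, 0.31 for Cdc42bpb, 0.37 for Emb and 0.39 for Sirpa. Of genes with a mean level from 0.5 to 2 times their own, 60.6%, 25.4%, 48.1%, 50.3% and 76.3% had a smaller spread, in the same order. Krt222 was thus among the steadier genes of its level and Sirpa among the less steady. A choice by levels in these same libraries may also favour genes of small spread, so these ranks are descriptions.

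Pearson correlations of deviations over the 10 libraries, given as descriptions, were positive for 8 of 10 pairs, with a median of 0.41. The highest were those of Emb with Nid1 (0.65) and with Sirpa (0.56), and the lowest that of Cdc42bpb with Sirpa (-0.30). Without Chat- replicate 4, where Krt222 and Cdc42bpb were low and Sirpa was high, all 10 pairs were positive, from 0.02 for Cdc42bpb with Sirpa to 0.72 for Emb with Sirpa, with a median of 0.53. Krt222 with Sirpa went from -0.18 to 0.56. Correlations with Chat were negative for all 5 genes, from -0.35 for Cdc42bpb to -0.82 for Nid1, and without Chat- replicate 4 that of Krt222 went from -0.46 to -0.83. Within the Chat+ group, replicate 5 had the lowest Chat level (31.1 CPM) and the highest levels of Krt222, Emb, Nid1 and Sirpa. Within the Chat- group, replicate 5 likewise had the lowest Chat level (1.17 CPM) and the highest levels of Krt222, Cdc42bpb, Emb and Nid1. Replicate 5 of each group also held the highest sum of the 5 genes, at 290 and 149 CPM.

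**Figure D4:**
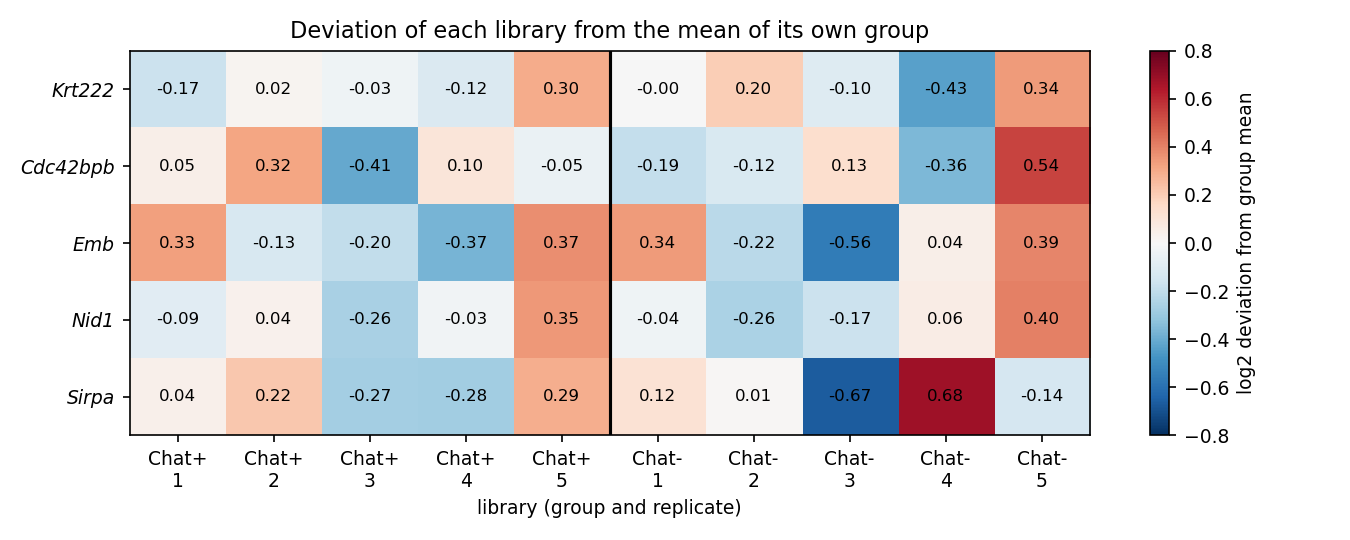
Deviation of each library (columns) from the mean of its own group on the log2(CPM + offset) scale (colour and printed value) for the 5 genes (rows). Replicate 5 is above the mean for Krt222, Emb and Nid1 in both groups, and Chat- replicate 4 is at 0.68 for Sirpa and -0.43 for Krt222.

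The genes whose deviations were most like each member were sought among 8291 named protein coding genes with a mean of at least 10 CPM, and the highest of so many correlations over 10 libraries are large by selection. For Krt222 they were Mlh3 (0.95), a mismatch repair gene, Suclg1 (0.95), of the citric acid cycle, and Nsa2 (0.95), of ribosome assembly. For Cdc42bpb they were Aes (0.95), a corepressor gene, Ficd (0.92), which encodes an AMP-transferring enzyme of the endoplasmic reticulum, and the ubiquitin ligase gene Ubr4 (0.91). Emb was closest to the ribosomal gene Rplp1 (0.93), Wee1 (0.91), whose kinase delays mitosis, and Plac8 (0.90), which also stands on the list of B-1 and innate-like B cells. Nid1 was closest to Ass1 (0.94), of arginine synthesis, Zyg11b (0.93), of protein turnover, and the lipid phosphatase gene Fig4 (0.91). Sirpa was closest to Fastkd1 (0.93), of mitochondrial RNA, Chpf (0.91), of chondroitin synthesis, and the ETS factor gene Elk3 (0.88).

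Most of these genes did not separate the groups. Wee1 and Plac8 were the 2 of the 15 whose groups did not overlap, beside 1.43% of all genes. They were at 14.3 ± 1.79 against 10.4 ± 1.79 CPM and at 264 ± 50.2 against 168 ± 28.6 CPM (SD, n = 5). The limma adjusted p was 0.999 for Wee1 and 0.28 for Plac8, so neither passed. Aes averaged 260 ± 22.5 CPM in the Chat+ group against 293 ± 27.2 CPM in the other, and Fastkd1 21.4 ± 1.88 and 21.6 ± 2.02 CPM.

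Marker lists of cell states and of other cell types were set beside the 5 genes in the same way. The lists were chosen with earlier results of these data known, so their counts are descriptions. All 16 listed genes of B-1 and innate-like B cells had a higher mean in Chat+, with a median log2 difference of 0.79, 7 of 16 with groups that did not overlap and 0 past the limma threshold. Beside these counts and the cycling cell counts below, 57.0% of all genes had a higher mean in Chat+. Groups did not overlap for 1.43% of all genes, and the median over all genes was 0.04. The B-1 genes with the smallest p were Ahnak (limma adjusted p = 0.11), Zbtb32 (0.17), Bhlhe41 (0.23) and Plac8 (0.28). The mean of that list deviated with Emb at a correlation of 0.83, with Sirpa at 0.54, with Nid1 at 0.50, with Krt222 at 0.41 and with Cdc42bpb at 0.17. Without Chat- replicate 4 it was 0.84 with Emb and 0.83 with Sirpa. The plasma cell list deviated with Krt222 at 0.91 and with Sirpa at -0.14, but without that library at 0.81 with Krt222 and 0.86 with Sirpa. Its members with the smallest p were Jchain, Mzb1, Derl3 and Fkbp11, all at a limma adjusted p of 0.999. Its summed level was 800 to 1063 CPM in Chat+ and 704 to 829 CPM in Chat-. Cycling cell genes had a median log2 difference of 1.12, with 16 of 16 higher in Chat+, 5 of 16 with groups that did not overlap and 0 past the threshold, or 5 past it without Chat+ replicate 5. Their list mean was not close to any of the 5 genes in deviation, from -0.54 with Nid1 to 0.05 with Sirpa. The mean of the B cell identity list deviated with Nid1 at -0.79, with Cdc42bpb at -0.65, with Krt222 at -0.36, with Emb at -0.34 and with Sirpa at -0.31. Without Chat- replicate 4 it was -0.79 with Nid1, -0.75 with Cdc42bpb and -0.52 with Krt222. The part of these cell states in the levels of the 5 genes was not tested.

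Sirpa is a gene of macrophages and Nid1 one of stromal cells, so their markers were read library by library. Of 18 listed monocyte and macrophage genes, 10 had a higher mean in Chat+, beside 57.0% of all genes. The limma threshold was passed by 0, and 0 of 18 were at 0 in any library. The summed level of the list was 594 to 774 CPM in Chat+ and 646 to 824 CPM in Chat-, most of it Ctss, which B cells also express, at 513 to 654 CPM. The mean of the list deviated with Sirpa at a correlation of 0.85 and with Krt222 at -0.39. Without Chat- replicate 4 the values were 0.74 for Sirpa and 0.82 for Krt222, and those of Cdc42bpb, Emb and Nid1 were -0.03, 0.40 and 0.42. Without that library 13 of the 18 were higher in Chat+, 6 reached an unadjusted p under 0.05, all higher in Chat+, beside the 774 higher and 284 lower of all genes, and the median log2 difference went from 0.07 to 0.47. The smallest p of the list belonged to Vcam1, Ccr2, C1qb and Adgre1, all at a limma adjusted p of 0.999. Adgre1, the gene of the macrophage antigen F4/80, had 4.98 to 11.5 CPM in Chat+, 10.9 CPM in Chat- replicate 4 and 4.26 to 6.04 CPM in the other Chat- libraries.

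Of 16 listed stromal and endothelial genes, 14 had a higher mean in Chat+, beside 57.0% of all genes. Of the 16, 0 passed the limma threshold and 3 were at 0 in at least 1 library. Their summed level was 291 to 433 CPM in Chat+, 604 CPM in Chat- replicate 4 and 307 to 330 CPM in the other Chat- libraries. Pecam1, which lymphocytes also carry, made up 177 CPM of this in Chat- replicate 4 and 247 to 284 CPM in the other libraries. The median log2 difference was 0.63 with all libraries and 1.25 without Chat- replicate 4. The smallest p belonged to Lepr, Vwf, Sparc and Pdgfra, all at a limma adjusted p of 0.999. The list deviated with Sirpa at 0.79 (0.54 without that library) and with Nid1 at 0.10 (0.03 without it). The part of these cells in the levels of Sirpa and Nid1 was not tested.

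Single myeloid and stromal markers varied among the Chat+ libraries, and not all in the same way. Col1a1 was 42.4, 40.8 and 38.5 CPM in Chat+ replicates 2, 3 and 5, but 16.3 and 8.40 CPM in Chat+ replicates 1 and 4, near the 7.59 to 12.4 CPM of the Chat- libraries other than replicate 4. C1qa, a complement gene of macrophages, had the same split, with 12.3, 13.5 and 11.4 CPM against 4.08 and 3.51 CPM, beside 2.997 to 4.66 CPM in those Chat- libraries. Csf1r had it within Chat+ too, with 8.13, 2.91 and 5.74 CPM against 1.35 and 0.775 CPM. So did Lyz2 of the macrophage list, with 36.3, 51.4 and 29.8 CPM against 21.7 and 23.4 CPM. Adgre1 did not have this split. Its lowest Chat+ level was in replicate 3 (4.98 CPM), with 7.43 and 7.06 CPM in replicates 1 and 4 and 10.98 and 11.5 CPM in replicates 2 and 5. Cd68, a lysosomal gene of macrophages, did not have it either, with 7.47 CPM in replicate 1 and 7.20 CPM in replicate 2. Sirpa was at 44.1, 31.5 and 46.5 CPM in Chat+ replicates 2, 3 and 5 and at 39.0 and 31.2 CPM in replicates 1 and 4. In Chat- replicate 4, with 111 CPM of Col1a1 and 33.8 CPM of C1qa, Sirpa was the highest of its group at 28.2 CPM, against 10.99 to 19.0 CPM in the others. Krt222 and Cdc42bpb were the lowest of their group there, and Nid1 at 77.2 CPM and Emb at 6.69 CPM lay inside the range of the other Chat- libraries.

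The summed levels of markers of other blood cells overlapped between the groups. Dendritic cell genes, of which 10 were listed, summed to 612 to 770.5 CPM in Chat+ and 585 to 797 CPM in Chat-, and haematopoietic progenitor genes, with 8 listed, to 393 to 497 and 335 to 458 CPM. For the progenitor genes the overlap rested on Chat- replicate 4 (458 CPM), and the other Chat- libraries had at most 382 CPM. Of these 8 genes, 4 had a higher and 4 a lower mean in Chat+. The 12 neutrophil genes summed to 23.1 to 146 and 47.6 to 122 CPM and the 10 erythroid genes to 563 to 927 and 486 to 1139 CPM. The mean of the erythroid list deviated with Emb at 0.78 and with Nid1 at 0.61, or 0.79 and 0.63 without Chat- replicate 4. The dendritic cell list was at 0.59 with Emb and 0.40 with Sirpa, or 0.60 with both without that library. The neutrophil list was at 0.50 with Emb, or 0.52 without it. The progenitor list was at -0.63 with Krt222 and -0.64 with Cdc42bpb, or -0.55 and -0.56 without it. The part of these cells in the levels of the 5 genes was not tested. Only 2 of 13 T and NK cell genes and 3 of 8 platelet genes were listed, with sums of at most 3.81 and 5.61 CPM in any library.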

How the data were processed

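RNA from sorted Chat+ and Chat- mature B cells was made into strand-specific libraries, per the labels' protocols. The submitters' processing notes name cutadapt 2.6, Salmon 0.14.2 and, as the build, GRCm38.p6. Salmon's annotation and strand setting: not given in the sources used here. The deposited values are log2 values: with the shared lowest value taken as an offset (0.115 CPM), each library sums to 1000000 CPM. CPM was computed by removing the offset. Depth was estimated from the step between values under 3 CPM; 35.4% to 48.7% of these came out whole (tolerance 0.001), too few to recover reads, and no count model was run.

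The members and gene lists were chosen with earlier results of these data known. The log2 values of all 14450 genes were fitted with limma 3.58.1 (R 4.3.3), using the group as the only term (mean-variance trend, two-sided p, Benjamini-Hochberg threshold 0.05); the script was tested on simulated data. Because of the offset, differences of low genes are understated. Named genes were the 5 members, Chat, up to 4 genes with the smallest p of each pathway list and of the marker lists taken to move with a member (B-1, plasma, macrophage and stromal; single genes of the erythroid list are not reported here), the 2 nearest listed genes on each side and the 3 genes most like each member. Others, among them Cdc42, Cdc42bpa, Cdc42bpg, Bsg, Slc16a1, Cd47, Ptpn6, Ptpn11, Lamc1, Csf1r, Lyz2, Cd68, C1qa, Col1a1, Ctss and Pecam1, were named after their values were seen. Symbols and coordinates came from GENCODE M21 (14391 of 14450 identifiers matched), where Myl12b has 2 identifiers and the higher was used. Tables and figures used Python 3.11.15, numpy 2.4.6, pandas 2.3.3 and matplotlib 3.10.9.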

Additional observations from a re-analysis of the deposited data

Results flagged for a closer look

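Values were checked for a single library far from the other 4 of its group in 158 groups of values, where chance flags about 1 in 20 groups, or 7.9 in all; 24 were found. None was a value of the 5 members or of Chat, so 0 of their 12 groups held such a library.

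Chat- replicate 4 accounted for most of them. It was far above the other Chat- libraries in mitochondrial share (11.9%, others 2.41% to 3.68%), in the summed stromal and endothelial list (604 CPM, others 307 to 330), in the keratin and intermediate filament list (931 CPM, others 720 to 771) and in the basement membrane list (376 CPM, others 233 to 273), and far below them in the list of SIRPA partners (2460 CPM, others 2954 to 3057). Among single genes it was highest for Krt7 (36.8 CPM), Krt10 (3.58 CPM), Lmna (32.0 CPM), Thbs1 (52.3 CPM), Col4a2 (2.04 CPM), Wipf1 (343 CPM), Il1b (4.13 CPM), Gm11560 (10.1 CPM), Gm14046 (15.6 CPM), Gm48672 (3.90 CPM) and Rpl34-ps2 (16.7 CPM), and lowest for Lmnb1 (40.3 CPM).

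Chat+ replicate 5 was the lowest of its group for Smarce1 (83.3 CPM, others 112 to 123) and the highest for Suclg1 (83.7 CPM), Nsa2 (251 CPM), Zyg11b (116 CPM) and Vim (691 CPM). Chat- replicate 5 was the highest of its group for Ass1 (46.8 CPM, others 26.0 to 28.6), and Chat+ replicate 1 for Lmna (31.4 CPM, others 18.7 to 20.6).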

How the results depend on the processing

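The log2 differences of the 5 members stayed above 0 and moved by less than the within-group SD in all alternatives run. Leaving out 1 library gave 1.16 to 1.35 for Krt222, 1.204 to 1.43 for Cdc42bpb, 1.38 to 1.62 for Emb, 0.74 to 0.93 for Nid1 and 0.94 to 1.28 for Sirpa. Genes past the threshold over all genes numbered 1 to 6 when 1 library was left out (6 without Chat+ replicate 5 or Chat- replicate 4, 2 without Chat- replicate 1 or 3), 105 with library quality weights and 3 without the mean-variance trend, against 1. A pairing of libraries by replicate number could not be decided, since the evidence was mixed. Correlations between libraries of equal number were of both signs (-0.20 to 0.23), but 3 of 5 Chat+ libraries were closest to their own number. With the replicate block 6 genes passed. Among the pathway lists 0 genes passed except with quality weights, where 2 did (Lmna and Itgb1). Of the marker lists, 0 genes passed in the main setting. With the weights 7 of 16 B-1, 11 of 16 cycling cell and 1 of 8 progenitor genes passed (Ly6a), 5 cycling cell genes passed without Chat+ replicate 5, and with the replicate block 1 B-1 gene (Bhlhe41). The median correlation over member pairs was -0.24 with the replicate mean also removed (replicate block), a setting that leaves few degrees of freedom, against 0.41. No neighbour passed with the replicate block or with any 1 library left out (0 of 20), and 20 of 220 values in these settings changed sign. The other settings are not reported here for the neighbours. Leaving out 1 library gave -0.13 to 0.060 for Smarce1, -0.088 to 0.036 for Ccr7, -0.79 to 0.33 for Amn, -0.26 to 0.10 for Rpl34-ps2, -1.31 to 0.12 for Gm6421, -0.30 to 0.75 for Gm48672, -0.28 to 0.64 for Gng4 and -0.60 to 0.41 for Il1b. edgeR and DESeq2 were not run, since whole reads were not recovered. Counting error limits genes of a few reads; the 5 members had at least 124 estimated reads in each library.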
